A study of Homo sapiens with 17 samples.

Results

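Transcripts of 9 Polycomb repressor subunits were measured by bulk RNA-seq in IMR-90 cells before and after DNA damage by etoposide. The 9 genes were EZH1, EZH2, SUZ12, EED, PHF19, CBX2, CBX7, CBX8 and BMI1. They were chosen by symbol for their known roles and by no cutoff on measured values, but with earlier results of these data known. All 9 were among the 41040 named genes of the count files, and all 9 were among the 16891 genes with enough counts to be tested. IMR-90 is a line of diploid fibroblasts from the lung of a human fetus. Etoposide traps topoisomerase II on DNA and so leaves double-strand breaks. Cells at week 0 received no etoposide (n = 5 libraries), while cells at week 1 (n = 6) and week 4 (n = 6) were harvested after exposure to 20 µM etoposide for 48 h. All groups were the same unmodified cell line, so every result below comes from a single line. No untreated cells were taken at the later weeks, so treatment and time in culture cannot be told apart. Whether replicates came from different cultures is not stated in the labels, and the p-values reflect variation among these libraries, part or all of which may be technical.

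Polycomb proteins keep genes silent through histone marks. Polycomb repressive complex 2 (PRC2) places methyl groups on H3K27 with EZH2 or its paralog EZH1 as the catalytic subunit, SUZ12 and EED as the obligate core, and accessory proteins such as PHF19. Polycomb repressive complex 1 (PRC1) contains a PCGF protein such as BMI1 beside a RING ubiquitin ligase. In its canonical form, PRC1 reads the mark of PRC2 through a CBX chromodomain protein. In fibroblasts the system is best known for silencing the INK4 locus, which encodes the cyclin-dependent kinase inhibitors CDKN2A and CDKN2B.

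Each library held 77.2 to 102.8 M counts on named genes, and no member had fewer than 125 counts in any library. The sum of 10 fibroblast markers in CPM (each gene's counts scaled to a common library total) was 32964 to 38877 at week 0, 42696 to 44746 at week 1 and 54470 to 57577 at week 4. Epithelial markers summed to 65.0 to 71.5 CPM, 235 to 275 CPM and 193 to 213 CPM at weeks 0, 1 and 4, and endothelial markers to 83.8 to 103.4, 58.3 to 62.2 and 52.0 to 76.6 CPM. KRT18 was the highest of the 6 epithelial markers in each group. Of the 6, 4, 5 and 4 had a count in every library of weeks 0, 1 and 4. Smooth muscle and pericyte markers summed to 674 to 714, 611 to 681 and 558 to 692 CPM, and leukocyte markers to at most 0.791 CPM in any library. No marker was at 0 in all libraries, and the part of other cell types in the results was not tested. In bulk RNA, fewer cells of a type and less RNA per cell cannot be told apart. Week 0 replicates 1 and 4 stood apart in ribosomal protein genes, with 6.27% and 5.46% of counts, against 3.37% to 4.14% in the other 15 libraries. Counts and calls that moved without these replicates are given both ways.

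Both comparisons with week 0, which share the week 0 libraries, gave the same split of the 9 genes. At week 1, 2 genes were higher than at week 0 (EZH1 and CBX7) and 7 were lower (edgeR's quasi-likelihood test, Benjamini-Hochberg adjusted p under 0.05), in a comparison that called 66.9% of all tested genes, 32.9% higher and 34% lower. At week 4 the same 2 genes were higher and the same 7 lower than at week 0, against 67.6% of all tested genes, 33.9% higher and 33.7% lower. A call on its own was therefore common among all genes, and the size of the differences is given for each gene below. More than 2-fold lower were 3 members, EZH2, CBX2 and PHF19, at both times, against 9.08% of tested genes at week 1 and 7.55% at week 4. More than 2-fold higher was EZH1 alone, at week 1, against 11.6% of tested genes, and no member was at week 4, against 12.1%. Over the alternative ways of processing given at the end, the EZH1 log2 fold change at week 1 ran from 0.94 to 1.18, on both sides of 2-fold. The median log2 fold change of the 9 was -0.64 at week 1 and -0.60 at week 4, against -0.02 and 0.00 over all tested genes. Without scaling factors for library composition, the median log2 fold change of all tested genes was -0.18 at week 1 and -0.19 at week 4, and the split of all called genes became 4344 higher and 7438 lower at week 1, against 5565 and 5740 with them. At week 4 it became 4201 higher and 7649 lower, against 5722 and 5692 with them. The values below are relative to the composition-scaled level of all genes.

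**Figure D1:**
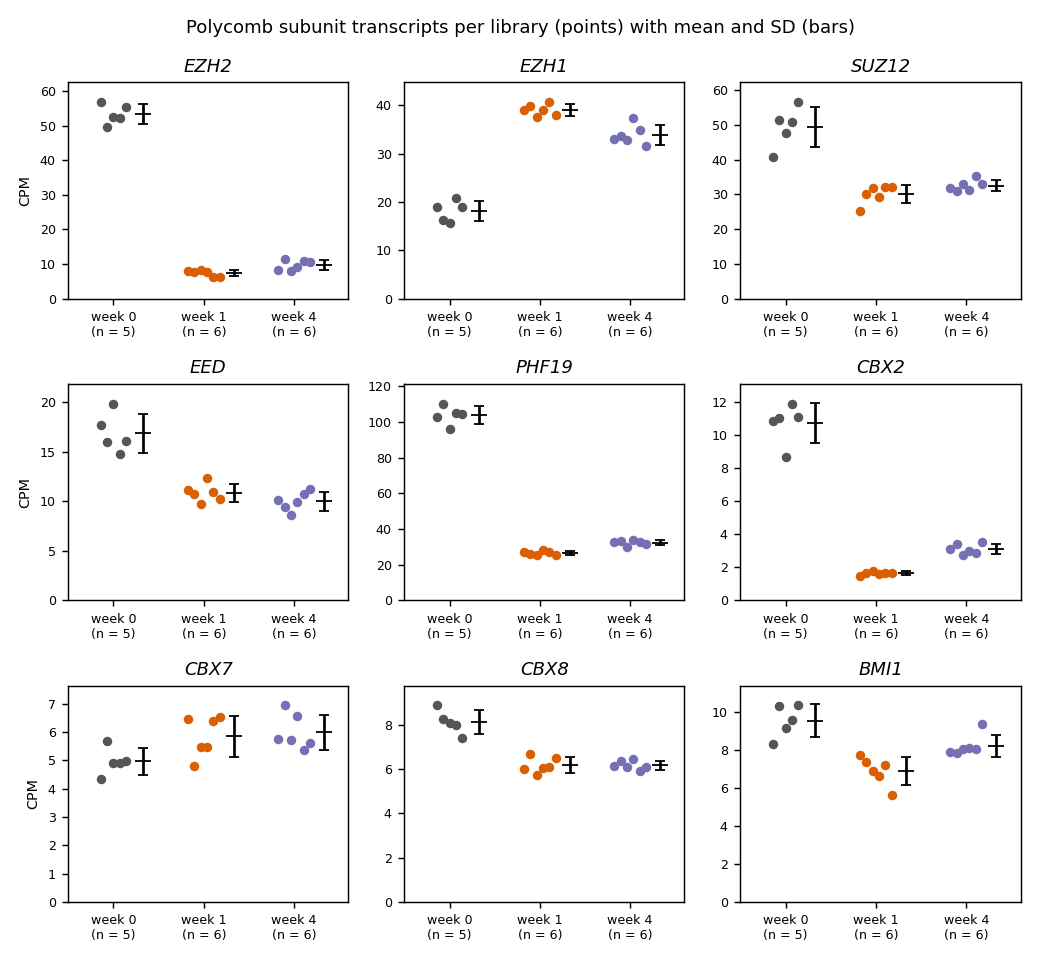
Level of each of the 9 Polycomb subunits in CPM on composition-scaled library sizes (vertical axis, a linear scale for each gene) at weeks 0, 1 and 4, with a point per library and the mean ± SD of each group. EZH2 lay at 49.7 to 56.9 CPM at week 0 and at or below 11.4 CPM in all 12 treated libraries, while EZH1 was at 15.8 to 20.7 CPM at week 0 and at or above 31.5 CPM in all treated libraries.

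The catalytic pair moved in opposite directions. EZH2, the methyltransferase typical of dividing cells, was at 56.9, 49.7, 52.6, 52.4 and 55.4 CPM in the 5 week 0 libraries. At week 1 its lowest, median and highest values were 6.21, 7.69 and 8.16 CPM, and at week 4 they were 8.04, 9.85 and 11.4 CPM. All treated libraries lay far below all week 0 libraries. EZH2 was 7.24-fold lower at week 1 than at week 0 (log2 fold change -2.86 ± 0.09 SE, edgeR adjusted p = 2.4e-17). It was 5.50-fold lower at week 4 than at week 0 (log2 fold change -2.46 ± 0.09 SE, edgeR adjusted p = 2.8e-16). Of all tested genes, 1.18% had a lower log2 fold change at week 1, and 1.28% at week 4.

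EZH1, the paralog found also in cells that have stopped dividing, was at 18.9, 16.3, 15.8, 20.7 and 19.0 CPM at week 0. Its lowest, median and highest values were 37.5, 39.1 and 40.7 CPM at week 1, and 31.5, 33.4 and 37.5 CPM at week 4. Every treated library was above every week 0 library. EZH1 was 2.15-fold higher at week 1 than at week 0 (log2 fold change 1.11 ± 0.07 SE, edgeR adjusted p = 9.7e-13) and 1.87-fold higher at week 4 than at week 0 (0.90 ± 0.06 SE, edgeR adjusted p = 3.7e-11). For EZH1, 89.2% of tested genes had a lower log2 fold change at week 1, and 85.6% at week 4.

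The balance of the catalytic paralogs turned over. Divided by the gene length given in the deposited files, the ratio of the EZH1 level to the EZH2 level was 0.524 ± 0.0543 at week 0 (SD, n = 5), 8.28 ± 1.11 at week 1 (n = 6) and 5.49 ± 0.839 at week 4 (n = 6). It was 0.462 to 0.610 in the week 0 libraries, 7.09 to 9.84 at week 1 and 4.58 to 6.29 at week 4. EZH2 was thus ahead in every week 0 library and EZH1 in every treated library. The size of the ratio depends on the length used, because the files give EZH2 10774 bases and its longest coding transcript in GENCODE 29 has 2639. With GENCODE lengths, chosen after seeing the data, the ratio was 0.194, 3.07 and 2.03 at weeks 0, 1 and 4, again below 1 in every week 0 library and above 1 in every treated library. The summed EZH1 and EZH2 level per kilobase was 7.55 ± 0.478, 6.27 ± 0.164 and 5.75 ± 0.327 CPM with the lengths in the files (SD), and 24.1 ± 1.34, 11.2 ± 0.350 and 11.0 ± 0.700 CPM with GENCODE lengths. How far the sum differed between weeks therefore depended on the length.

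**Figure D2:**
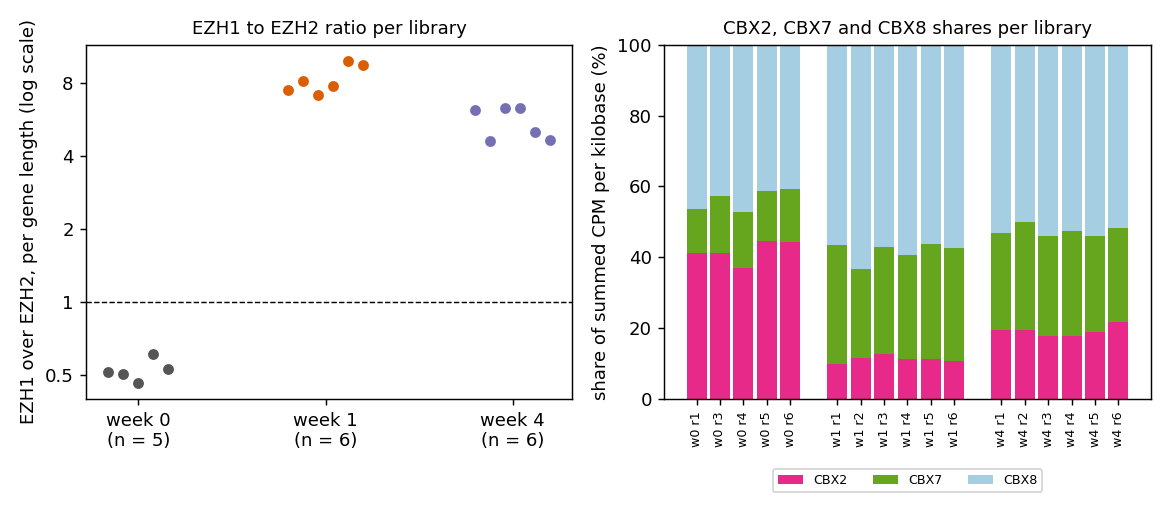
Left, the ratio of EZH1 to EZH2 with a point per library, and right, the percent of the summed level held by CBX2, CBX7 and CBX8 with a bar per library (w for week, r for replicate), both from CPM divided by the gene length in the deposited files. The EZH1 to EZH2 ratio (log axis) was 0.462 to 0.610 at week 0, 7.09 to 9.84 at week 1 and 4.58 to 6.29 at week 4, and CBX2 held 41.6%, 11.3% and 19.2% of the CBX2, CBX7 and CBX8 total on average.

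The non-catalytic core was lower by a smaller amount than EZH2. SUZ12, the scaffold of PRC2, was at 40.8, 51.3, 47.8, 50.9 and 56.7 CPM at week 0. At week 1 its lowest, median and highest values were 25.2, 31.0 and 32.2 CPM, and at week 4 they were 30.9, 32.4 and 35.4 CPM. No treated library reached the lowest week 0 library. SUZ12 was 1.64-fold lower at week 1 than at week 0 (log2 fold change -0.72 ± 0.07 SE, edgeR adjusted p = 1.1e-08) and 1.52-fold lower at week 4 than at week 0 (-0.60 ± 0.07 SE, edgeR adjusted p = 1.6e-07).

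EED, the subunit that binds methylated H3K27 and stimulates the enzyme, was at 17.7, 16.0, 19.9, 14.8 and 16.0 CPM at week 0. It ran from 9.70 to 12.3 CPM at week 1, with a median of 10.8 CPM, and from 8.58 to 11.3 CPM at week 4, with a median of 10.0 CPM. The groups did not overlap with week 0. EED was 1.56-fold lower at week 1 than at week 0 (log2 fold change -0.64 ± 0.08 SE, edgeR adjusted p = 4.6e-07) and 1.69-fold lower at week 4 than at week 0 (-0.75 ± 0.08 SE, edgeR adjusted p = 3.9e-08).

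PHF19, a Polycomb-like protein that helps to bring PRC2 to its targets, had the tightest replicates of the 9, with a biological coefficient of variation of 5.89%, against 11.7% over all genes. It was at 102.7, 110.3, 96.2, 105.2 and 104.7 CPM at week 0. Its lowest, median and highest values were 25.3, 26.5 and 28.2 CPM at week 1, and 29.97, 32.8 and 34.0 CPM at week 4. Week 0 lay well above both treated groups in every library. PHF19 was 3.92-fold lower at week 1 than at week 0 (log2 fold change -1.97 ± 0.05 SE, edgeR adjusted p = 1.5e-19) and 3.21-fold lower at week 4 than at week 0 (-1.68 ± 0.05 SE, edgeR adjusted p = 2.1e-18). For PHF19, 2.88% of tested genes had a lower log2 fold change at week 1, and 3% at week 4.

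The RefSeq promoters of the PRC2 genes, 250 bases before to 50 after a start site in GRCh38.p14, are shown where they held a motif of the E2F family, transcription factors that switch on replication genes in dividing cells. A RefSeq entry was found for 7 of the 9 members, with 10 promoters. The spellings searched on both strands were TTTCCCGC, TTTCGCGC, TTTGCCGC and TTTGGCGC, and 4 of the 10 promoters held a match, 1 each of EZH2, PHF19, SUZ12 and EZH1. A match was found in 3.31% of all 35116 RefSeq promoters, and in 4.62% of the 17952 promoters of tested genes. The other promoters of EZH2 and PHF19, and those of EED, BMI1 and CBX7, held none of these spellings. Each sequence is written 5′ to 3′ along the gene, in lower case with the match in capitals.
EZH2, chr7:148884242-148884541, minus strand: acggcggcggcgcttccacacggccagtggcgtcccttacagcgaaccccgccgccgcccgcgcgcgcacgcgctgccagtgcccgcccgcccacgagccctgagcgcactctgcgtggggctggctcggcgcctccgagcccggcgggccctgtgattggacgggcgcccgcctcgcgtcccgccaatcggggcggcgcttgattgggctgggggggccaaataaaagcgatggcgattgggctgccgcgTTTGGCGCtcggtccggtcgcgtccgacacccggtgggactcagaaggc
PHF19, chr9:120877139-120877438, minus strand: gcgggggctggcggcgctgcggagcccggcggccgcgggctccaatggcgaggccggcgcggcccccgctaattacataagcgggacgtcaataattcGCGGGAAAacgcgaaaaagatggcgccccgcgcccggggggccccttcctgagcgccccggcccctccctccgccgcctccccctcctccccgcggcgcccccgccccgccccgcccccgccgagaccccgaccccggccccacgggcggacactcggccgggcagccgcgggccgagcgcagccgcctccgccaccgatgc
SUZ12, chr17:31936757-31937056, plus strand: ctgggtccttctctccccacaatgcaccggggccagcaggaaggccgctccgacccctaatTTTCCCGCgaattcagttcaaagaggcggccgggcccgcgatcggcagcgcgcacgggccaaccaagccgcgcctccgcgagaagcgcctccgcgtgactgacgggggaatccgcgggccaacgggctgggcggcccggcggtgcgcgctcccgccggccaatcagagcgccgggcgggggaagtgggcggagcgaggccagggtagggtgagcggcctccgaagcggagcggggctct
EZH1, chr17:42744991-42745290, minus strand: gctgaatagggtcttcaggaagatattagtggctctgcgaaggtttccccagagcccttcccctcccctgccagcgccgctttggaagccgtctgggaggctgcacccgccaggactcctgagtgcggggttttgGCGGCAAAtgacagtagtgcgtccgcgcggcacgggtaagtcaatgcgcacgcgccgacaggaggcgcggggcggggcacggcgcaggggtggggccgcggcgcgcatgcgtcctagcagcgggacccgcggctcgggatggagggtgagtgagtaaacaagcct
In EZH2 the match began at base 2 after the start site, with TTTGGCGC on the strand of the gene. In PHF19 it began at -152, as GCGGGAAA, the reverse complement of TTTCCCGC. In SUZ12 it began at -189 with TTTCCCGC, and in EZH1 at -115 as GCGGCAAA, the reverse complement of TTTGCCGC. A match was thus present both in genes that were lower after etoposide and in EZH1, which was higher. The cell-cycle homology element TTTGAA, searched in the same way, was found in SUZ12 alone, as TTCAAA at -173 with no overlap with the other match, and in 15.2% of all RefSeq promoters.

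Among the 3 CBX readers, CBX2 had the largest difference, CBX8 a small one, and CBX7 the opposite direction. CBX2, a PRC1 subunit that also compacts chromatin, was at 10.9, 11.0, 8.69, 11.9 and 11.1 CPM at week 0. At week 1 its lowest, median and highest values were 1.47, 1.67 and 1.77 CPM, or 125 to 162 counts, and at week 4 they were 2.77, 3.04 and 3.54 CPM. The 3 groups were apart from each other in every library. CBX2 was 6.53-fold lower at week 1 than at week 0 (log2 fold change -2.71 ± 0.09 SE, edgeR adjusted p = 7.8e-17) and 3.45-fold lower at week 4 than at week 0 (-1.79 ± 0.09 SE, edgeR adjusted p = 6.1e-14).

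CBX8, a reader known to bind the INK4 locus in fibroblasts, was at 8.90, 8.29, 8.11, 8.03 and 7.41 CPM at week 0. It ran from 5.75 to 6.69 CPM at week 1, with a median of 6.09 CPM, and from 5.92 to 6.45 CPM at week 4, with a median of 6.14 CPM. Neither treated group overlapped with week 0. CBX8 was 1.32-fold lower at each time than at week 0, with a log2 fold change of -0.40 ± 0.06 SE in both comparisons (edgeR adjusted p = 1.3e-05 at week 1 and 1.2e-05 at week 4).

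CBX7, a reader whose raised level is known to extend the lifespan of fibroblasts, was at 4.35, 5.69, 4.93, 4.92 and 4.97 CPM at week 0. Its lowest, median and highest values were 4.79, 5.94 and 6.53 CPM at week 1, and 5.39, 5.74 and 6.96 CPM at week 4. Both treated groups overlapped with week 0, where replicate 3 was the highest. CBX7 was 1.18-fold higher at week 1 than at week 0 (log2 fold change 0.24 ± 0.10 SE, edgeR adjusted p = 0.035) and 1.21-fold higher at week 4 than at week 0 (0.27 ± 0.10 SE, edgeR adjusted p = 0.016). Without week 0 replicates 1 and 4, the log2 fold changes of CBX7 were 0.17 (edgeR adjusted p = 0.17) at week 1 and 0.21 (adjusted p = 0.096) at week 4. Without scaling factors they were 0.07 (edgeR adjusted p = 0.49) and 0.08 (adjusted p = 0.47).

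Per unit of gene length, the make-up of the 3 readers differed between the weeks. With the lengths in the files, CBX2 held 41.6%, 11.3% and 19.2% of their summed level at weeks 0, 1 and 4, CBX7 held 14.7%, 30.4% and 28.2%, and CBX8 held 43.6%, 58.3% and 52.6%. With GENCODE lengths CBX2 held 40.6%, 10.3% and 17.7%, CBX7 held 21.5%, 41.8% and 38.9%, and CBX8 held 37.9%, 47.8% and 43.3%. CBX2 thus had the smallest share at weeks 1 and 4 with both lengths, while its place before or after CBX8 at week 0 depended on the length. Shares sum to the whole, so each share depends on the levels of all 3 readers. With the lengths in the files, CBX2 averaged 1.89, 0.289 and 0.548 CPM per kilobase at weeks 0, 1 and 4. CBX7 averaged 0.666, 0.784 and 0.804 CPM per kilobase, and CBX8 averaged 1.97, 1.501 and 1.498. How much each reader added to the gain in the shares of CBX7 and CBX8 was not tested.

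BMI1, the PCGF subunit of canonical PRC1 and the best known repressor of CDKN2A, differed little. It was at 8.29, 10.3, 9.17, 9.61 and 10.4 CPM at week 0. Its lowest, median and highest values were 5.62, 7.06 and 7.73 CPM at week 1, and 7.82, 8.05 and 9.40 CPM at week 4. Week 1 lay below all week 0 libraries, while week 4 overlapped with week 0. BMI1 was 1.38-fold lower at week 1 than at week 0 (log2 fold change -0.47 ± 0.08 SE, edgeR adjusted p = 3.3e-05) and 1.16-fold lower at week 4 than at week 0 (-0.22 ± 0.08 SE, edgeR adjusted p = 0.024). The call at week 4 was lost with upper-quartile scaling (-0.15, edgeR adjusted p = 0.11) and without week 0 replicate 3 (-0.19, adjusted p = 0.065) or 6 (-0.19, adjusted p = 0.064). It was also lost with a term for the layout of the deposited files (-0.15, edgeR adjusted p = 0.11) and in the layout without a gene length alone (-0.18, adjusted p = 0.10).

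Counting groups whose libraries did not overlap, 8 of the 9 genes were apart from week 0 at week 1 (all but CBX7), against 48.7% of all tested genes. At week 4 it was 7 of 9 (all but CBX7 and BMI1), against 49%. The deposited files came in 2 layouts, 4 with a gene length (2 each of week 0 and week 1) and 13 without. In week 1 against week 0, the log2 fold changes in libraries without and with a length were -2.90 and -2.78 for EZH2, 1.18 and 1.00 for EZH1, -1.97 and -1.97 for PHF19, and -2.61 and -2.87 for CBX2. They were -0.58 and -0.95 for SUZ12, -0.74 and -0.48 for EED, -0.50 and -0.40 for BMI1, -0.47 and -0.27 for CBX8, and 0.25 and 0.19 for CBX7. Every gene kept its direction in both layouts. CBX8 in the layout with a length (edgeR adjusted p = 0.063, 2 libraries against 2) and CBX7 in both (adjusted p = 0.082 without a length and 0.29 with one) no longer passed. All week 4 libraries were in the layout without a length, where CBX7 at week 4 against week 0 had 0.26 (edgeR adjusted p = 0.051).

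**Figure D3:**
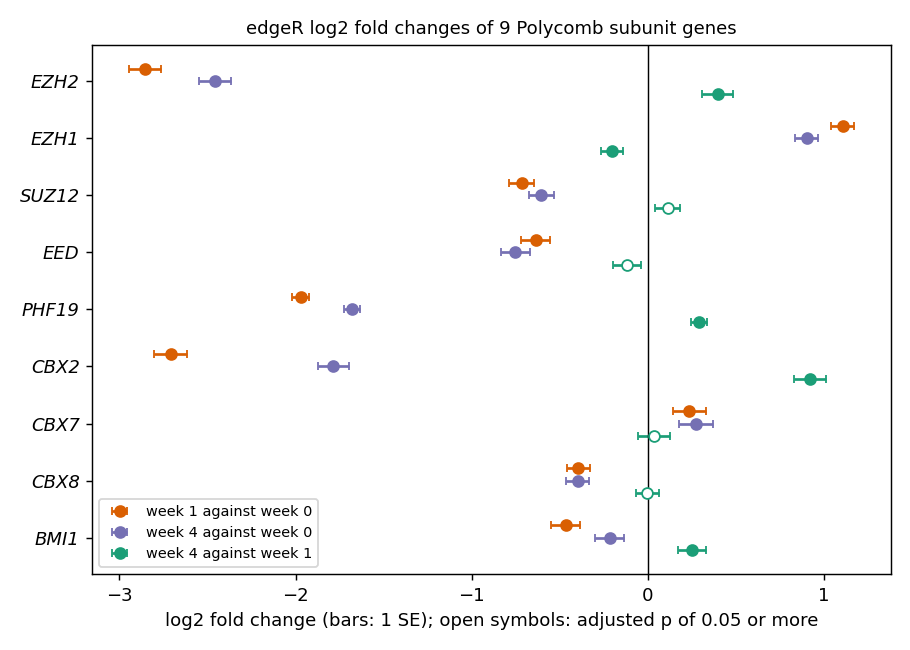
Log2 fold change of each of the 9 genes at week 1 and week 4, each against week 0, and at week 4 against week 1, with bars of 1 standard error from the edgeR fit and open symbols where the adjusted p was 0.05 or more. EZH2, CBX2 and PHF19 lie furthest below 0, at -2.86, -2.71 and -1.97 at week 1, and EZH1 furthest above it, at 1.11.

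Week 4 was also compared with week 1. Of the 9 genes, 4 were higher at week 4 than at week 1 (EZH2, CBX2, BMI1 and PHF19), 1 was lower (EZH1) and 4 did not pass, in a comparison that called 40.5% of all tested genes, 21.8% higher and 18.6% lower. CBX2 was 1.90-fold higher at week 4 (log2 fold change 0.92 ± 0.09 SE, edgeR adjusted p = 4.5e-08), and PHF19 was 1.22-fold higher (0.29 ± 0.04 SE, adjusted p = 1.8e-05). Neither gene had a week 4 library in the range of week 1. EZH2 was 1.32-fold higher (0.40 ± 0.09 SE, edgeR adjusted p = 8.8e-04), with overlap, since week 4 replicate 3 lay within the week 1 range. BMI1 was 1.19-fold higher (0.25 ± 0.08 SE, edgeR adjusted p = 0.015), without overlap. EZH1 was lower by a small amount (-0.20 ± 0.06 SE, edgeR adjusted p = 0.0095), again without overlap. SUZ12 (0.11 ± 0.07 SE, edgeR adjusted p = 0.22), EED (-0.12 ± 0.08 SE, 0.26), CBX7 (0.04 ± 0.09 SE, 0.79) and CBX8 (0.00 ± 0.06 SE, 0.98) did not pass. None of the 9 differed by more than 2-fold, against 2.99% of tested genes higher and 1.14% lower by that much. Without overlap were 4 of the 9, against 30.2% of all tested genes. Each of the 5 called genes lay nearer to its week 0 level at week 4 than at week 1, and none of the 5 group means reached it.

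The order of the 9 genes by level per kilobase, with the lengths in the files, differed between weeks. At week 0 it was led by PHF19 (15.7 CPM per kilobase), SUZ12 (7.56) and EZH2 (4.95), whose libraries did not overlap with each other. EZH1 (2.59), EED (2.41), BMI1 (2.17), CBX8 (1.97) and CBX2 (1.89) followed, each overlapping with its neighbour, and CBX7 (0.666) was last and apart. At week 1 EZH1 (5.59) was first and apart from the next, SUZ12 (4.60) and PHF19 (4.02) overlapped, and so did BMI1 (1.57), EED (1.55) and CBX8 (1.501). CBX7 (0.784) and EZH2 (0.684) overlapped, and CBX2 (0.289) was last and apart. At week 4 SUZ12 (4.97), PHF19 (4.91) and EZH1 (4.85) could not be ordered beyond their spread, EZH2 (0.900) overlapped with CBX7 (0.804), and CBX2 (0.548) was again last. The places of EZH2 and EED, among others, depend on the length. With GENCODE lengths EZH2 was second at week 0, with 20.2 CPM per kilobase after 24.5 for PHF19 and before 11.0 for SUZ12. At weeks 1 and 4 EZH2 was then at 2.79 and 3.67, above CBX7 (1.43 and 1.47) without overlap. EED (7.60) was then above EZH1 (3.92) at week 0.

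The genes whose pattern over the 17 libraries was most like each member were found among 10118 genes of at least 5 CPM, by the root mean square difference of centred log2 CPM. Nearest to EZH2 were KIF22, WDR76 and CDT1, at 0.134, 0.153 and 0.154 log2 units. Nearest to PHF19 were NASP (0.0591), NSD2 (0.0888) and NCAPD3 (0.0908). Those of EZH1 were FBXO44 (0.0745), PPP2R5B (0.0794) and DGKA (0.0862), and those of CBX2 were ID3 (0.165), PRRX2 (0.174) and FANCB (0.196). SUZ12 was nearest to CEP192 (0.0832), EED to HMGN4 (0.101), CBX8 to MACROH2A1 (0.0691), BMI1 to CLMP (0.0907) and CBX7 to C8orf82 (0.114). No member was among the nearest 3 of another, but CBX2 averaged below 5 CPM over all libraries and so was not among the candidates. Libraries share their group means here, so a small difference describes a like profile over weeks.

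Of 10 other PRC2 subunits, 8 had enough counts to be tested, and the same 4 were lower than at week 0 at both times. These were RBBP7 and RBBP4, histone-binding core subunits, MTF2, a Polycomb-like protein, and LCORL. RBBP7 had a log2 fold change of -0.998 ± 0.06 SE at week 1 (edgeR adjusted p = 1.2e-12) and -1.02 ± 0.06 SE at week 4 (adjusted p = 1.0e-12). RBBP4 was at -0.98 and -0.79, MTF2 at -0.89 and -0.59, and LCORL at -1.32 and -0.93. LCOR, whose locus also encodes a PRC2 accessory protein, was higher, at 0.49 and 0.65. JARID2 and AEBP2 did not pass at either time. PHF1 did not pass either, but it was near the floor, at 0.126, 0.108 and 0.0859 CPM on average at weeks 0, 1 and 4. Its SE was 0.35 in both comparisons, so it could not show a modest difference. The median of the 8 was -0.55 at week 1 and -0.57 at week 4, and 62.5% were called in each comparison with week 0, a share below that of all tested genes. Without week 0 replicates 1 and 4 the counts were 1 higher and 5 lower at week 1 and 1 higher and 4 lower at week 4, and without scaling factors 1 and 6, and 1 and 4. MTF2, PHF1, JARID2 and AEBP2 were named after their values were seen.

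Of 11 other canonical PRC1 subunits, 9 were tested, with 2 higher and 5 lower at week 1 and 3 higher and 5 lower at week 4, each against week 0 (medians -0.40 and -0.19). That is 77.8% and 88.9% called, against 66.9% and 67.6% of all tested genes. SCML2, a PRC1-associated protein, was the lowest, at -2.29 ± 0.17 SE (edgeR adjusted p = 4.2e-11) and -1.53 ± 0.16 SE (adjusted p = 2.2e-08). Its relatives SCML1 (-0.81 and -0.92) and SCMH1 (-0.64 and -0.42) were lower as well. PHC3, a Polyhomeotic protein, had 0.03 at week 1, which did not pass, and rose at week 4 (0.49, edgeR adjusted p = 5.7e-05). RING1, a ligase that most cells express, had 0 counts in every library, so its listed 0 cannot be read as absence, and PCGF2 had at most 14 counts. Without scaling factors, 0 of these genes were higher and 5 lower at week 1, and 1 was higher and 6 lower at week 4. Without week 0 replicates 1 and 4, they were 1 higher and 5 lower, and 2 higher and 4 lower.

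Of 18 subunits of variant PRC1, 1 was higher and 10 were lower at week 1 (median -0.19), and 6 were higher and 8 lower at week 4 (median -0.14), each against week 0. The shares called, 61.1% and 77.8%, stand against 66.9% and 67.6% of all tested genes. AUTS2, known as a PRC1 partner that turns genes on in neurons, was at -1.76 ± 0.09 SE (edgeR adjusted p = 1.1e-13) and -1.07. PCGF6 was at -1.03 and -0.91, and L3MBTL2 at -0.43 and -0.69. PCGF5 was higher, at 0.18 and 0.32. Of 11 subunits of the H2A deubiquitinase that removes the PRC1 mark, 4 were higher and 4 lower at week 1 and 5 were higher and 4 lower at week 4, or 72.7% and 81.8% called. Without scaling factors they were 2 higher and 7 lower, and 3 higher and 5 lower, and without week 0 replicates 1 and 4 they were 3 higher and 7 lower, and 4 higher and 4 lower. BAP1, its catalytic subunit, was at -0.31 and -0.29, and KDM1B, a histone demethylase, was at 0.60 in both comparisons. The number of higher and lower genes in these lists moved with the scaling: without scaling factors, 0 variant PRC1 subunits were higher and 14 lower at week 1, and 1 was higher and 12 lower at week 4. Without week 0 replicates 1 and 4, they were 1 higher and 12 lower, and 4 higher and 10 lower.

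The H3K27 demethylases and the Trithorax group, which oppose Polycomb, were 16 genes, of which 15 were tested. Against week 0, 4 were higher and 7 lower at week 1 (median -0.12) and 6 were higher and 4 lower at week 4 (median 0.10), or 73.3% and 66.7% called. Without scaling factors these counts became 4 higher and 10 lower at week 1, and 5 higher and 6 lower at week 4, and they were the same without week 0 replicates 1 and 4. At week 4, 13 of the 15 were higher than at week 1 and 0 were lower, with and without scaling factors, against 21.8% of all tested genes higher. Their median difference was 0.34, against 0.01 over all tested genes. KDM6B, a demethylase of H3K27, averaged 41.4 ± 4.60 CPM in week 0 libraries, 51.2 ± 1.23 CPM in week 1 libraries and 78.8 ± 2.62 CPM in week 4 libraries (SD). It was higher than at week 0 by 0.30 ± 0.06 SE at week 1 (edgeR adjusted p = 7.7e-05) and 0.93 ± 0.06 SE at week 4 (adjusted p = 3.6e-12). The methyltransferase genes KMT2C (0.75 and 1.31) and KMT2A (0.59 and 1.21) were higher as well, while NSD2 was lower (-1.86 and -1.67). SMARCB1 had at most 5 counts in any library and was not tested, and as with RING1 this cannot be read as absence.

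**Figure D4:**
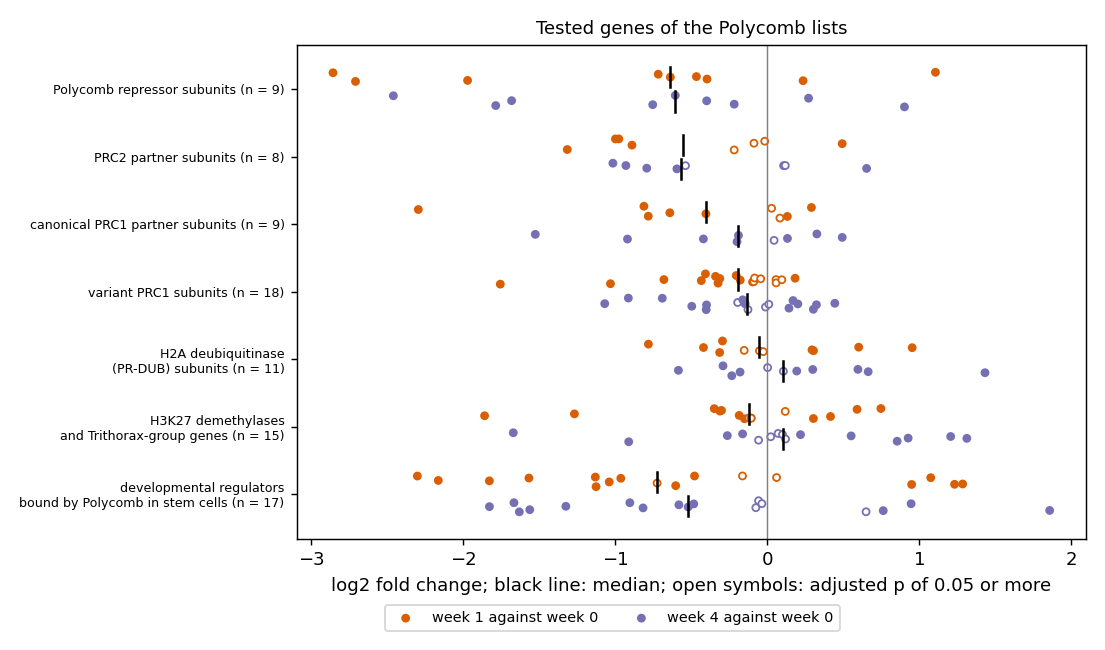
Log2 fold changes against week 0 for the tested genes of each Polycomb-related list at week 1 and week 4, and for the 9 subunits in the top row, with a point per gene, open where the adjusted p was 0.05 or more, and a black line at the median. The medians of the 9 subunits are -0.64 and -0.60, and those of the PRC2 partners -0.55 and -0.57.

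At the INK4 locus, CDKN2A was at 8.28 to 10.3 CPM in week 0 libraries, 15.6 to 18.9 CPM in week 1 libraries and 26.2 to 31.0 CPM in week 4 libraries. CDKN2B was at 4.49 to 5.91 CPM, 17.8 to 20.4 CPM and 28.1 to 34.4 CPM. Neither gene had overlapping groups, and both were higher at week 4 than at week 1 (CDKN2A 0.73 and CDKN2B 0.72, edgeR adjusted p = 8.9e-09 and 1.1e-08). CDKN2B-AS1, an antisense transcript of the locus known to bind PRC proteins, was lower than at week 0, by -1.14 ± 0.24 SE at week 1 (edgeR adjusted p = 2.6e-04) and -0.997 ± 0.24 SE at week 4 (adjusted p = 9.3e-04). It had only 18 to 110 counts per library, and no source used here gives the strand setting of the counting, so reads of CDKN2B and of its antisense partner cannot be told apart.

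Developmental regulators that Polycomb silences in stem cells were mostly too low to test, since 42 of 59 had at most 17 counts in any library. Of the 17 tested, 4 were higher and 10 lower at week 1 and 3 were higher and 10 lower at week 4, each against week 0 (medians -0.72 and -0.52), or 82.4% and 76.5% called, against 66.9% and 67.6% of all tested genes. GATA6 (1.23 and 1.86), SOX9 (0.95 and 0.95) and PAX8 (1.08 and 0.76) were higher. DLX1 (-2.16 and -1.83), DLX2 (-2.30 and -1.63) and GATA2 (-1.57 and -1.67), all transcription factors, were lower. Without scaling factors, 3 were higher and 11 lower at both times, and without week 0 replicates 1 and 4 the counts were 3 and 10 at week 1 and 3 and 11 at week 4.

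Proliferation genes moved with the same groups, and their part in the members' values was not tested. All 8 were lower at both times than at week 0, including MKI67, the marker of cycling cells, at 410.4 ± 58.4, 42.7 ± 4.62 and 66.5 ± 10.1 CPM at weeks 0, 1 and 4 (SD). Week 0 replicates 1 and 4 were its 2 lowest untreated libraries. E2F1, an E2F activator, was at 41.7 ± 3.44, 9.37 ± 0.669 and 8.77 ± 0.752 CPM, and E2F2 at 8.41, 0.627 and 0.737 CPM on average. MKI67 was higher at week 4 than at week 1 (0.64, edgeR adjusted p = 1.6e-05), as were EZH2 and CBX2, while E2F1 was not (-0.10).

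**Figure D5:**
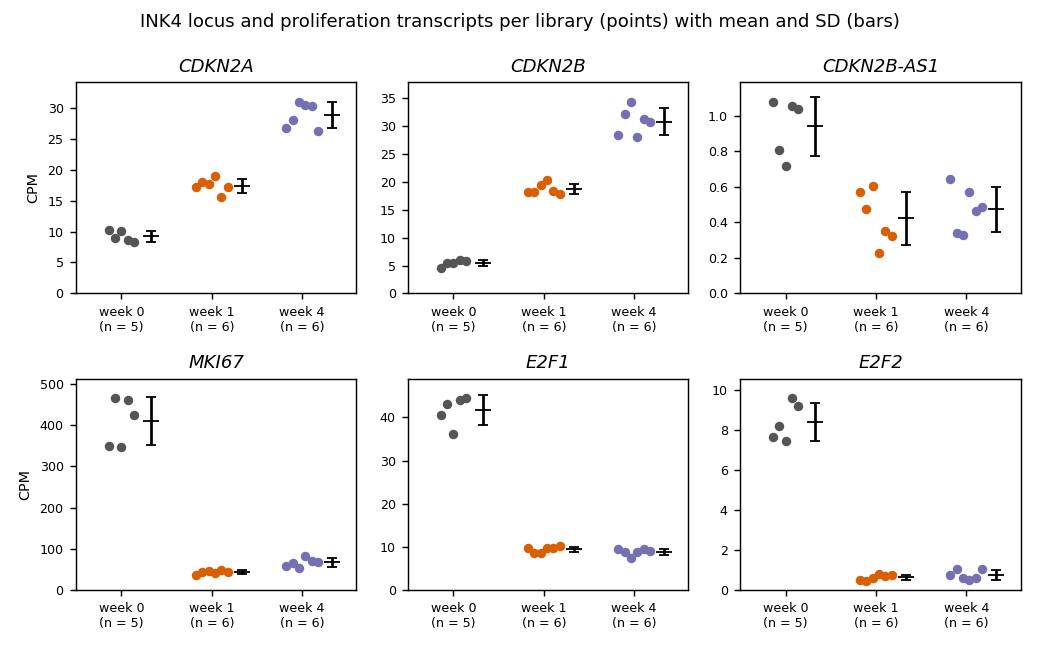
Levels in CPM of the INK4 locus transcripts and of proliferation genes at weeks 0, 1 and 4, with a point per library and the mean ± SD of each group. CDKN2A and CDKN2B step up from week to week without overlap, while MKI67 and E2F1 are far lower at weeks 1 and 4 than at week 0.

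Entries for sequences related to the members had few counts. The COMMD3-BMI1 readthrough entry and BMI1P1 had 0 counts in every library, SUZ12P1 had at most 16 and EZH2P1 at most 40. The readthrough shares exon sequence with BMI1 on the same strand, so its 0 cannot be read as absence. Whether reads in the shared exons were left out of the BMI1 count was not tested, so the level of BMI1 may be too low. CBX7 overlaps an exon on the opposite strand in GENCODE 29, and reads from the pair cannot be told apart. On the same strand, COX5BP7 overlaps an exon of CBX7 and MIR6755 an exon of EED, each with 0 counts in every library. Whether reads there were left out of the CBX7 and EED counts was not tested.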

How the data were processed

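The authors deposited raw gene counts by gene symbol, one file per library, not normalized. The submitters' processing notes name the aligner HISAT2 2.0.5.2, the counter featureCounts 1.4.6 and the mouse build mm10. The symbols are those of human genes, so which build was counted is unclear, and no coordinates come from these files. An entry with no gene name (0.221% to 0.289% of counts) was left out.

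Counts of 17 libraries, grouped by the labels, were tested in edgeR 4.0.16 (R 4.3.3). The steps were filterByExpr by group, TMM factors (0.938 to 1.11), a quasi-likelihood fit of all groups, 3 comparisons, Benjamini-Hochberg adjustment over 16891 genes and calls at adjusted p under 0.05. The standard error is the size of the log2 fold change over the square root of F. The method was tested on simulated data. Levels are CPM on TMM-scaled library sizes, and marker sums use library totals. No pair of replicates differed by as little as sampling noise (chi-square per gene at least 7.385 over 40 pairs).

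The members and lists were chosen with earlier results of these data known. Genes named from a list were up to 3 higher and 3 lower called members with a mean of at least 1 CPM, apart from those said to be named later and a gene that is not reported here. Alternatives were RLE and upper-quartile scaling, no scaling, DESeq2 1.42.0, limma-voom 3.58.1, other filters, only the groups compared, file layout, the replicate number as a block, and each library left out.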

Additional observations from a re-analysis of the deposited data

Results flagged for a closer look

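BMI1 in week 4 replicate 6 was at 9.40 CPM, far from the other 5 week 4 libraries, which were at 7.82 to 8.10 CPM. The gap to the nearest library was 0.824 of the range of the group, above Dixon's 95% critical value for 6 libraries. It was 1 of 27 groups of member values tested, and chance gives about 1 in 20.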

How the results depend on the processing

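Of 792 member log2 fold changes recomputed, 769 kept their side of the threshold and 23 lost their call, and no call changed direction. Uncalled values near 0 crossed it at week 4 against week 1, CBX7 (-0.02 to 0.07) and CBX8 (-0.03 to 0.02). Those lost were CBX7 at week 1 against week 0 in 13 settings (0.07 to 0.31, edgeR adjusted p 0.0068 to 0.49 over its 30 alternatives) and at week 4 against week 0 in 4. BMI1 at week 4 against week 0 lost its call in 5, and CBX8 at week 1 against week 0 in 1. The members called were 7 to 9 in both comparisons with week 0 and 5 of 9 for week 4 against week 1 in every setting. With each library left out in turn, 10981 to 11372 genes were called at week 1 against week 0, 11015 to 11356 at week 4 against week 0 and 6218 to 7308 at week 4 against week 1, and 8 to 9, 8 to 9 and 5 of the members. Without week 0 replicates 1 and 4 together, 11296, 11299 and 8310 genes were called. Libraries with the same replicate number did not deviate together (correlations -0.0383 to 0.0671 over 16 pairs). With the replicate number as a block, 11096, 11180 and 6669 genes and 8, 9 and 5 members were called, and CBX7 at week 1 against week 0 was lost (0.24, adjusted p = 0.066). The ratio of EZH1 to EZH2 at weeks 0, 1 and 4 was 0.340, 5.37 and 3.56 from CPM without length and 0.194, 3.07 and 2.03 with GENCODE lengths, since the lengths differ. CBX2 at week 1 rests on 125 to 162 counts, the fewest of any member.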
